A study of Mus musculus with 2 samples.

Results

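The mitochondrial carriers of the Slc25 family were taken as every gene that the GENCODE M21 annotation calls protein-coding and whose symbol starts with Slc25a. There were 47 such genes among 22028 annotated protein-coding genes. The rule used no measured value, though it was set with earlier results of these data known. Their reads were described in 2 long-read RNA sequencing libraries of gastrocnemius, the large calf muscle, each from 1 female mouse of the strain B6CASTF1/J (also labelled B6Cast F1) aged 25 days. The animals carried no treatment in the labels and formed 1 group with 2 biological replicates. Replicate 1 came from the animal numbered 3 and replicate 2 from the animal numbered 4. Each library was made from 2 µg of total RNA. The library of replicate 1 held 1069771 mouse reads and that of replicate 2 held 1557594. A count of 0, which allows up to 3 reads, therefore allowed 2.80 CPM (counts-per-million of mouse reads) in replicate 1 and 1.93 CPM in replicate 2, counting error only.

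Slc25 proteins are built from repeated pairs of membrane helices and sit, with few exceptions, in the inner mitochondrial membrane, which is otherwise closed to charged metabolites. They carry out the exchange of ADP for ATP, the entry of phosphate, the shuttling of reducing equivalents as malate and aspartate, and the entry of acylcarnitines, amino acids, nucleotides and cofactors. In skeletal muscle the exchange of adenine nucleotides and the uptake of phosphate supply the ATP that contraction uses.

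Slc25a3, which brings phosphate into the matrix for ATP synthesis, has a pair of alternating coding exons, here called exon A and exon B. Exon A is the third exon of Slc25a3-206 and exon B the third exon of Slc25a3-201. They are shown because the reads of Slc25a3 are sorted by them below. Capitals mark the bases that differ between the exons, or face a gap, in a global alignment. The sequences are those of the GENCODE M21 transcripts on mm10, minus strand, at chr10:91122207-91122331 for exon A (transcript Slc25a3-206) and chr10:91121922-91122043 for exon B (transcripts Slc25a3-201 and Slc25a3-203).
Slc25a3 exon A: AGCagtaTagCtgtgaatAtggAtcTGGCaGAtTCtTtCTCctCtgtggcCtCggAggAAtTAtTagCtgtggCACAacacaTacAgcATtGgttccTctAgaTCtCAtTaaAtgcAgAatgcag
Slc25a3 exon B: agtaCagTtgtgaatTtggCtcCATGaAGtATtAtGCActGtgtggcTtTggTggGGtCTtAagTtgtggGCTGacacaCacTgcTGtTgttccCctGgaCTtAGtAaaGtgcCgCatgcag
Exon A has 125 bases and exon B 122, so they differ by 3 bases, and they lie 163 bases apart. They share 77 of 125 alignment columns, an identity of 61.6%.

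Slc25a4 and Slc25a5, the adenine nucleotide carriers often called ANT1 and ANT2, are the closest pair of abundant members. The coding parts of their last exons are shown to compare them. Many of their reads were counted in single-exon models placed in the last exon, described below. The Slc25a4 model covers only part of the stretch shown, and the Slc25a5 model of replicate 1 lies outside it. The noncoding parts of the last exons were not compared. Capitals mark the bases that differ between the genes. The Slc25a4 sequence lies at chr8:46207463-46207620 on the minus strand and the Slc25a5 sequence at chrX:36798387-36798544 on the plus strand (mm10, GENCODE M21 transcripts).
Slc25a4 last coding exon: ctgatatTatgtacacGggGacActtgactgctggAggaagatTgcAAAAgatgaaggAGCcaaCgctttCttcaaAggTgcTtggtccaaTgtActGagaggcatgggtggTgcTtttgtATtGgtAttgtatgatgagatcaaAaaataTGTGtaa
Slc25a5 last coding exon: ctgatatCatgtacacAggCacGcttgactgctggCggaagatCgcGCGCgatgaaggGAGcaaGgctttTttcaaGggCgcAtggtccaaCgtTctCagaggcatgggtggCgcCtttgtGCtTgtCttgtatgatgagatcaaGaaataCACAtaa
These stretches were identical at 126 of 158 bases, or 79.7%, and the whole coding sequences of both genes at 77.5% of 897 bases. Slc25a31, the testis adenine nucleotide carrier and the other close relative, shared 61.6% of alignment columns with Slc25a4. It had no read in either library. The processed pseudogene Slc25a5-ps had 0 reads in replicate 1 and 2 in replicate 2. How reads were shared between such relatives was not tested.

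Reads were found for 41 of the 47 carriers, for 38 in replicate 1, 39 in replicate 2 and 36 in both. The family held 13024 reads in replicate 1 and 27089 in replicate 2. That was 1.22% of the mouse reads of replicate 1 (95% exact binomial interval 1.20 to 1.24) and 1.74% of those of replicate 2 (1.72 to 1.76), a mean of 1.48% ± 0.369 (SD, n = 2). Most of this gap lay in Slc25a4. Without it, the other 46 carriers summed to 2401 CPM in replicate 1 and 2478 CPM in replicate 2. Neither library held a read of Slc25a2, Slc25a31, Slc25a41, Slc25a43, Slc25a48 or Slc25a54, so each was not detectable above the limit given for a count of 0.

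**Figure D1:**
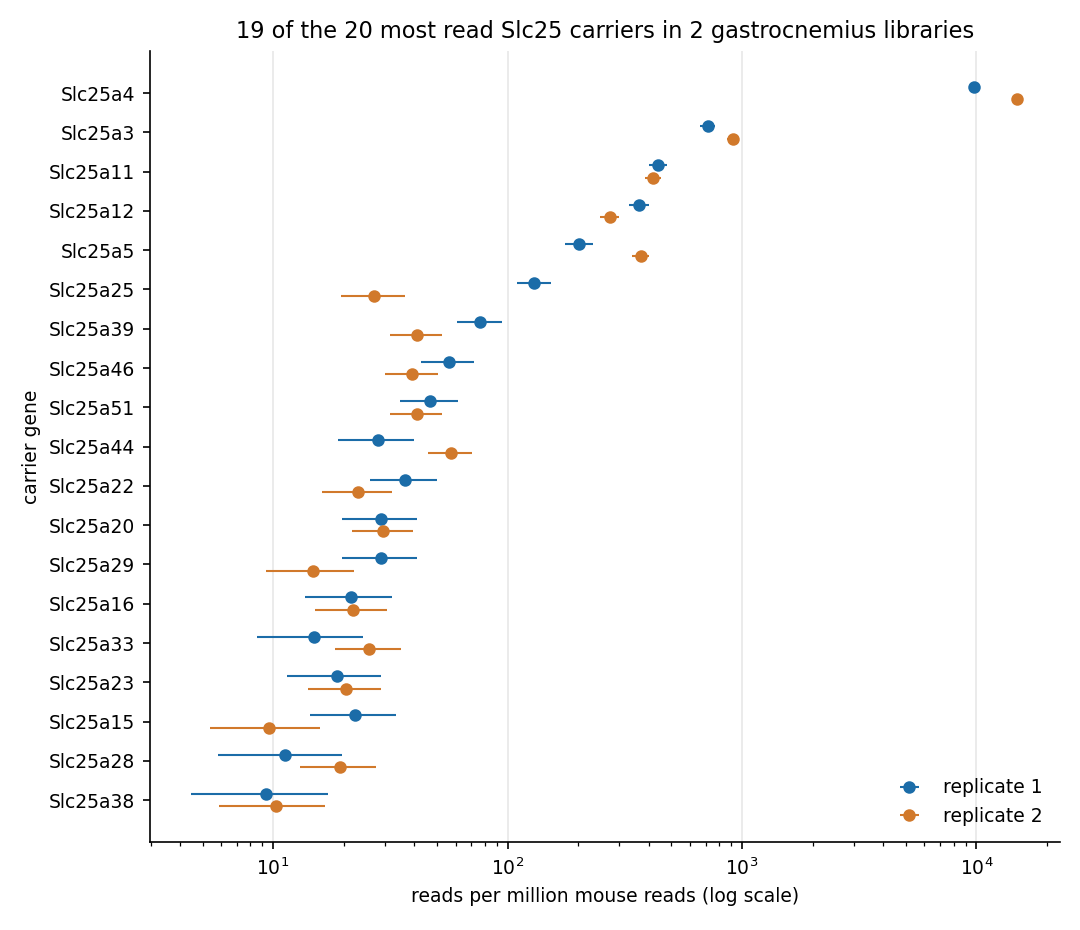
CPM on a log scale for 19 of the 20 most read Slc25 carriers, with replicate 1 in blue and replicate 2 in orange; bars are 95% exact binomial intervals of the counts. Slc25a4 stands at 9774 and 14914 CPM, more than 10 times above Slc25a3, and Slc25a25 shows the widest gap between the libraries.

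The family was led by 1 gene. Slc25a4 had 10456 reads (9774 CPM) in replicate 1 and 23230 reads (14914 CPM) in replicate 2. It took 80.3% of the carrier reads in replicate 1 and 85.8% in replicate 2, a mean of 83.0% ± 3.87 (SD, n = 2). Slc25a3, the phosphate carrier, came next with 765 reads (715 CPM) and 1420 reads (912 CPM). In CPM, Slc25a4 was 13.7 times Slc25a3 in replicate 1 and 16.4 times in replicate 2. Slc25a5 had 216 reads (202 CPM) and 576 reads (370 CPM). The 3 detected members of the adenine nucleotide and phosphate group together held 87.8% of the carrier reads in replicate 1 and 93.1% in replicate 2.

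Carriers of dicarboxylates and of the malate-aspartate shuttle followed. Slc25a11, which exchanges oxoglutarate for malate, had 470 reads (439 CPM) in replicate 1 and 649 reads (417 CPM) in replicate 2. Slc25a12, the aspartate-glutamate carrier also called aralar, had 389 reads (364 CPM) and 425 reads (273 CPM). Its liver paralogue citrin, Slc25a13, had 3 reads in replicate 1 and 0 in replicate 2. Slc25a11 and Slc25a12, the carriers of the malate-aspartate shuttle, led their groups in each library. By contrast, the citrate carrier Slc25a1 had 10 and 8 reads, and the dicarboxylate carrier Slc25a10 had 9 and 7. Slc25a20, which brings acylcarnitines into the matrix for fatty acid oxidation, had 31 reads (29.0 CPM) and 46 reads (29.5 CPM), nearly the same level in both libraries.

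The amino acid carriers other than Slc25a12 were read at low levels. Slc25a44, a carrier of branched-chain amino acids, had 30 reads (28.0 CPM) in replicate 1 and 89 reads (57.1 CPM) in replicate 2. The glutamate carrier Slc25a22 had 39 reads (36.5 CPM) and 36 reads (23.1 CPM), and its paralogue Slc25a18 had 0 reads and 1 read. Slc25a29, a carrier of basic amino acids, had 31 reads (29.0 CPM) and 23 reads (14.8 CPM). The ornithine carrier Slc25a15 had 24 reads (22.4 CPM) and 15 reads (9.63 CPM). Slc25a38, which carries glycine for haem synthesis, had 10 reads (9.35 CPM) and 16 reads (10.3 CPM).

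Among carriers of cofactors and nucleotides, Slc25a25, a calcium-regulated ATP-Mg/phosphate carrier, had 139 reads (130 CPM) in replicate 1 and 42 reads (27.0 CPM) in replicate 2. Its relative Slc25a23 had 20 reads (18.7 CPM) and 32 reads (20.5 CPM), Slc25a24 had 2 and 0, and Slc25a41 had none. Slc25a51, the NAD carrier, had 50 reads (46.7 CPM) and 64 reads (41.1 CPM). Slc25a16, linked to coenzyme A, had 23 reads (21.5 CPM) and 34 reads (21.8 CPM). The pyrimidine nucleotide carrier Slc25a33 had 16 reads (15.0 CPM) and 40 reads (25.7 CPM). Of the members named in this group, Slc25a25 had the widest gap between the libraries.

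Of the iron and glutathione carriers, Slc25a39, which brings glutathione into the matrix, had 82 reads (76.7 CPM) and 64 reads (41.1 CPM). Slc25a28 (mitoferrin 2) had 12 reads (11.2 CPM) and 30 reads (19.3 CPM), and the erythroid mitoferrin Slc25a37 had 1 and 5. Slc25a46, an outer membrane protein that acts in mitochondrial dynamics, had 60 reads (56.1 CPM) and 61 reads (39.2 CPM). The uncoupling-protein-like carriers Slc25a14, Slc25a27 and Slc25a30 held 8 reads in replicate 1 and 6 in replicate 2 between them. The 21 detected carriers outside the 20 most read had mean levels from 0.321 to 8.67 CPM, with 1 to 22 reads over both libraries.

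A long read stands for 1 cDNA molecule, so levels were compared between genes in CPM, without division by length, in the paragraphs above. When CPM was divided by the length in kilobases of the most read complete model, Slc25a4 held 79.7% of the family in replicate 1 and 84.0% in replicate 2. On this scale Slc25a5 (231 CPM per kb, mean of both libraries) passed Slc25a12 (50.1 CPM per kb), whose leading model has 6351 bases. The order of Slc25a12 and Slc25a5 in CPM also differed between the libraries, with Slc25a12 higher in replicate 1 and Slc25a5 higher in replicate 2. That order rested on single-exon reads of Slc25a5, described below. On complete spliced reads Slc25a12 was the higher in both libraries, with 273 against 101 CPM in replicate 1 and 196 against 79.6 CPM in replicate 2.

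The libraries differed in markers of fibre type and of other cells, by the test described in the next paragraph, which called 11.1% of all genes higher and 14.9% lower in replicate 2. All 8 slow-fibre markers (Tnnt1, Tnni1, Tnnc1, Myh7, Myl2, Myl3, Tpm3 and Atp2a2) were higher in replicate 2, and their sum was 1056 CPM in replicate 1 and 8121 CPM in replicate 2. The 5 skeletal muscle markers summed to 182461 and 210630 CPM, with 4 higher and 1 lower. The 1 lower was Myh4, the myosin of fast fibres (16360 and 7963 CPM, log2 ratio -1.04). The 4 higher included Tnnc2 (18604 and 35377 CPM, log2 ratio 0.93) and Mylpf (13582 and 22368 CPM, log2 ratio 0.72). Myh4 thus went against the rest of its list. Of the 6 adipocyte markers 5 were lower in replicate 2 (summed levels 517 and 237 CPM), as were 5 of 5 erythroid markers (1235 and 415 CPM). Of 4 fibroblast markers 2 were higher (Col1a2 and Dcn) and 1 lower (summed levels 4235 and 2515 CPM). The 1 lower was Col3a1 (2665 and 706 CPM), and Col1a1 did not pass. The lower sum in replicate 2 thus rested on Col3a1. Of 4 endothelial markers 1 was lower (63.6 and 31.5 CPM), and of 4 leukocyte markers 1 was higher (44.9 and 66.8 CPM). Liver markers held 2 reads in replicate 1 and 0 in replicate 2. The part of fibre type and of other cells in the carrier differences was not tested, and in bulk muscle fewer cells of a type and less RNA per cell cannot be told apart.

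With 1 group there is no comparison between conditions, and the following test compares 2 libraries. For each gene with 10 or more reads over both, Fisher's exact test (two-sided) set its reads against all other mouse reads, with Benjamini-Hochberg adjustment over 8892 genes and an adjusted p below 0.05 as the threshold. Of 29 carriers tested, 4 were higher in replicate 2, 3 were lower and 22 did not pass. Over all genes 26.0% passed, 11.1% higher and 14.9% lower, so the carriers' 7 of 29 is near the background. The median log2 ratio of replicate 2 over replicate 1 was -0.19 over the 29 carriers and -0.18 over all genes.

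Slc25a4 was higher in replicate 2 by a log2 ratio of 0.61 (95% counting interval 0.58 to 0.64, adjusted p = 2.11e-296 by Fisher's exact test). Slc25a3 was higher by 0.35 (0.22 to 0.48, adjusted p = 7.87e-07, Fisher's exact test). Slc25a5 and Slc25a44 had log2 ratios of 0.87 (adjusted p = 1.16e-13) and 1.01 (adjusted p = 0.00352, both Fisher's exact test). Both turn around below when single-exon reads are set aside. All 3 detected members of the adenine nucleotide and phosphate group were thus called higher on all reads, and 2 of them, Slc25a4 and Slc25a3, on complete reads set against all mouse reads, where 9.47% of all genes were called higher and 20.4% lower.

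Slc25a25 was the carrier with the widest difference, a log2 ratio of -2.26 (-2.80 to -1.76, adjusted p = 3.22e-21, Fisher's exact test). Slc25a39 was lower in replicate 2 by a log2 ratio of -0.90 (-1.39 to -0.41, adjusted p = 0.00153, Fisher's exact test). Slc25a12 was lower with a log2 ratio of -0.41 (-0.62 to -0.21, adjusted p = 0.000433, Fisher's exact test). The call for Slc25a12 depended on the scaling: with TMM sizes its ratio was -0.23 (adjusted p = 0.0857, Fisher's exact test), and with the trend of the ratio on transcript length removed it was 0.25 (adjusted p = 0.0829, exact binomial test). The length correction also took Slc25a3 to 0.09 (adjusted p = 0.493, exact binomial test). Slc25a11, the third most read carrier, differed little, with a log2 ratio of -0.08 (-0.25 to 0.10, adjusted p = 0.604, Fisher's exact test).

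By role, and beside the 26.0% of all genes that passed in either direction, no member of the dicarboxylate and acylcarnitine group passed among 5 tested. Of 10 tested carriers of cofactors and nucleotides 1 passed (Slc25a25, lower), of 7 amino acid carriers 2 (Slc25a12 lower, Slc25a44 higher) and of 3 iron and glutathione carriers 1 (Slc25a39, lower). Fisher's exact test counts only sampling error. With edgeR's exact test at a fixed dispersion of 0.04, which allows for spread between animals, 0 carriers were higher and 1, Slc25a25, was lower, against 1.18% and 1.07% of all genes.

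**Figure D2:**
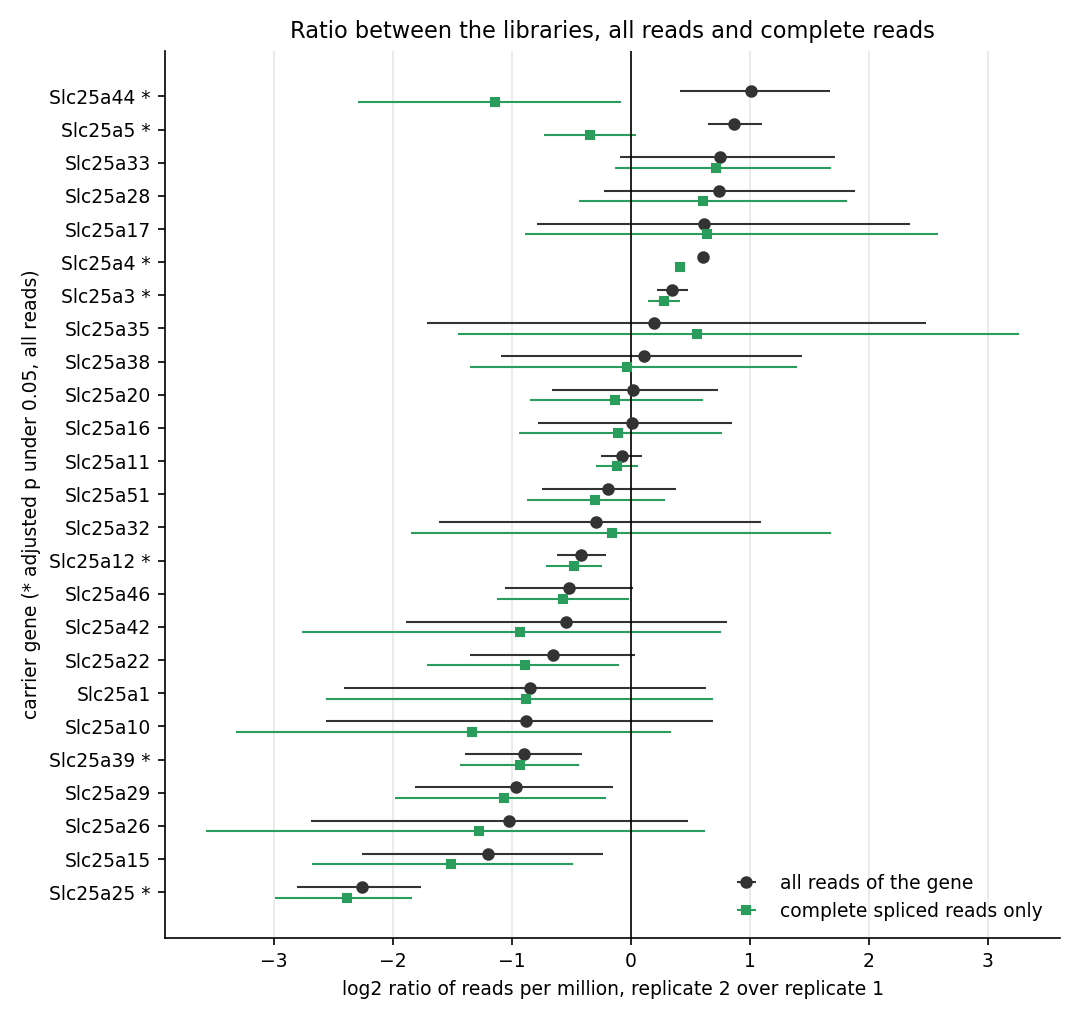
Log2 ratio of CPM, replicate 2 over replicate 1, for 25 of the 26 carriers with 10 or more complete reads, from all reads (black circles) and from complete spliced reads alone (green squares); bars are 95% counting intervals and asterisks mark an adjusted p below 0.05 on all reads. The symbols lie close together for Slc25a25, Slc25a39 and Slc25a12 and on opposite sides of 0 for Slc25a44 and Slc25a5.

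The reads of a gene came in 3 forms. Complete reads carried a full intron chain (classes Known, NIC and NNC of the deposited models: annotated, annotated sites in a new combination, and with a splice site outside the annotation). Incomplete spliced reads carried part of an annotated chain, and single-exon reads carried no intron. Of the carrier reads 85.9% were complete in replicate 1 and 74.9% in replicate 2. Single-exon reads made 12.2% (11.7 to 12.8) in replicate 1 and 23.6% (23.1 to 24.1) in replicate 2. Over all protein-coding genes with a spliced model they made 3.17% and 7.68%.

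Slc25a4 and Slc25a5 held most of these single-exon reads. The coordinates and lengths given for single-exon models are those of the model, and they need not show where each of its reads begins and ends. Slc25a4 had 1397 in replicate 1 (13.4% of its reads) and 5635 in replicate 2 (24.3%). Nearly all were in 1 model of 747 bases at chr8:46206797-46207543, inside the last exon. The deposited models class it as Genomic in both libraries, a class apart from Known, NIC and NNC. Slc25a5 had 106 (49.1%) and 452 (78.5%). Their models lay in its last exon, at chrX:36798553-36798807 in replicate 1 (class Genomic) and at chrX:36798387-36798553 in replicate 2 (class ISM, incomplete). Both genes thus had more single-exon reads, as a share, in replicate 2.

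On complete reads alone, over all mouse reads, Slc25a4 had 9004 reads (8417 CPM) in replicate 1 and 17446 reads (11201 CPM) in replicate 2, a log2 ratio of 0.41 (0.38 to 0.45). Slc25a3 had 697 and 1229, a log2 ratio of 0.28 (0.14 to 0.41). Slc25a5 had 108 and 124 complete reads, and its ratio reversed to -0.34 (-0.73 to 0.04, adjusted p = 0.171, Fisher's exact test). Slc25a44 had 20 and 13 complete reads and a ratio of -1.14 (-2.29 to -0.08, adjusted p = 0.0909, Fisher's exact test). The higher count of Slc25a44 in replicate 2 came from 75 reads of a single-exon model of class Genomic. It was recorded with a length of 2 bases at the end of the gene. Models under 20 bases held 0.175% of all reads in replicate 1 and 1.07% in replicate 2. Slc25a25 stayed lower on complete reads, with 123 and 34, a log2 ratio of -2.38 (-2.99 to -1.84). Slc25a39 stayed lower as well, with 80 and 61, a ratio of -0.93 (-1.44 to -0.43).

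**Figure D3:**
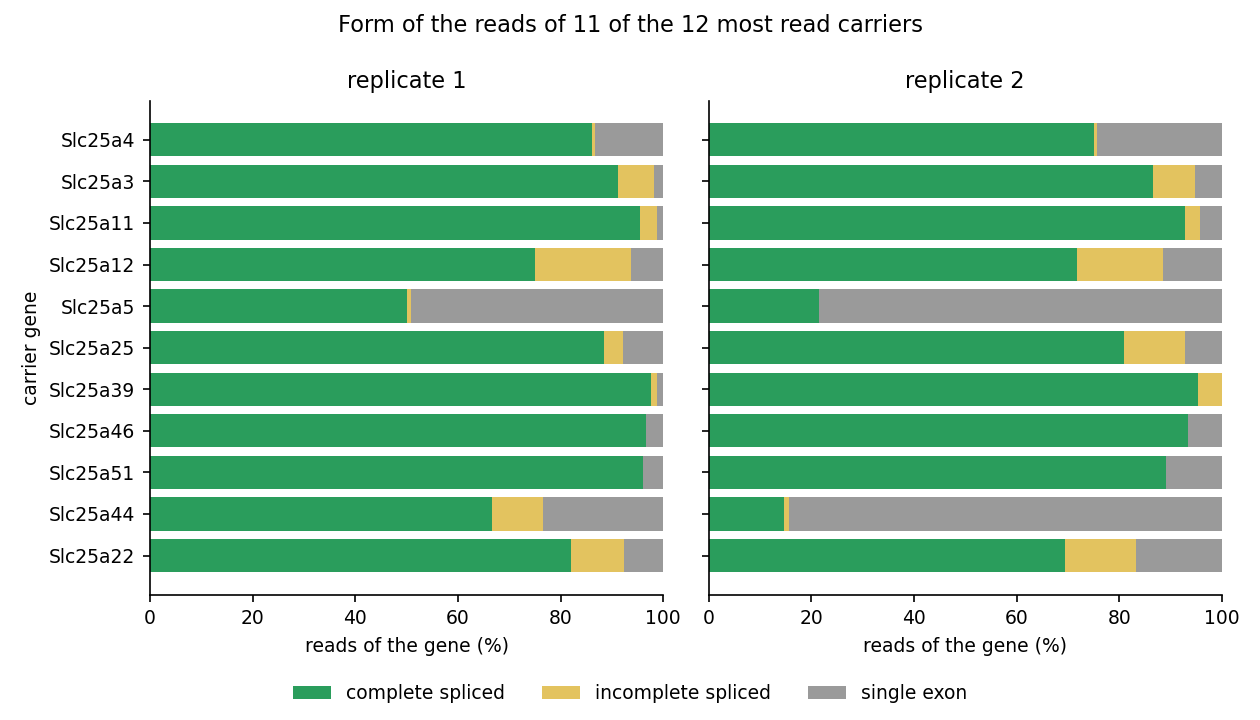
Share of each gene's reads that were complete spliced (green), incomplete spliced (yellow) or single-exon (grey) for 11 of the 12 most read carriers, with replicate 1 on the left and replicate 2 on the right. Slc25a5 and Slc25a44 are mostly grey in replicate 2 (78.5% and 84.3%), and Slc25a12 has the largest yellow share in replicate 1 (18.8%).

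Isoforms were described by intron chain, the ordered set of introns of a read, for the 14 carriers with 20 or more complete reads in each library. An annotated transcript of a single exon counted as a chain here, which concerned Slc25a22 among the 14. In most of them 1 chain held the bulk of the complete reads, although the number of different chains ran from 1 for Slc25a20 to 34 for Slc25a3. The leading chain was an annotated transcript in 13 of the 14 and the exception was Slc25a22. Slc25a4-201 (4 exons) made 99.6% of the complete reads of its gene in both libraries. Slc25a20-201 (9 exons) made all 30 and 40 complete reads of its gene. Slc25a12-206 (18 exons) made 99.0% and 97.0%, Slc25a5-201 (4 exons) 98.1% and 97.6%, and Slc25a11-201 (8 exons) 96.7% and 95.9%.

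The other leading chains took a smaller share. Slc25a39-201 (12 exons) made 96.3% and 95.1%, and Slc25a51-201 (3 exons) 95.8% and 93.0%. Slc25a29-201 made 26 of 29 and 19 of 20 complete reads, and a chain with an unannotated splice site made 6.90% (2 reads) and 5% (1 read). Slc25a16-201 made 90.9% and 93.3%, and Slc25a46-201 82.8% and 87.7%.

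Fisher's exact test, run over 3273 genes, set the leading chain of a gene against its other chains in both libraries; each gene had 20 or more complete reads in each library and 2 or more chains. None of the 13 carriers tested passed after adjustment, and 1 had an unadjusted p below 0.05. Over all genes 0.733% passed. The leading chain held 90% or more of the complete reads, averaged over the libraries, in 9 of the 13 carriers, and in 48.7% of all genes tested. Chains outside the annotation made 1.39% and 1.17% of the carriers' complete reads, and without Slc25a4 they made 5.53% and 6.15%. Over all annotated genes they made 27.0% and 14.8%.

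**Figure D4:**
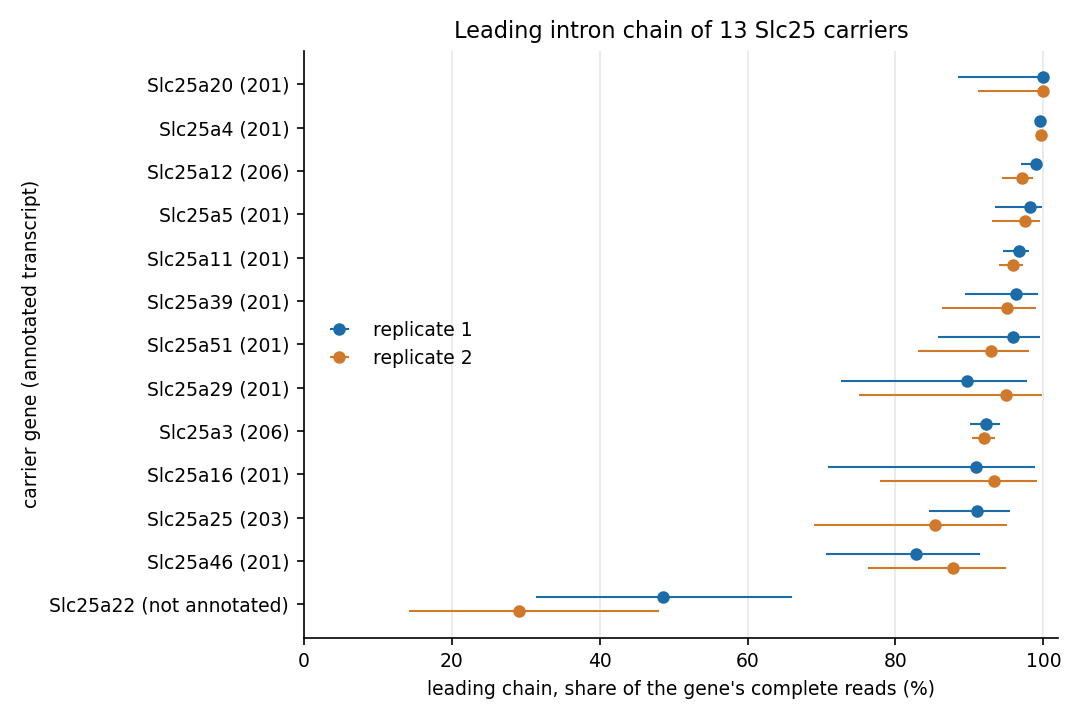
Share of a gene's complete reads held by its leading intron chain for 13 of the 14 carriers, with replicate 1 in blue and replicate 2 in orange and 95% exact binomial intervals; the annotated transcript number is in brackets. Of those shown, only Slc25a22 is led by a chain outside the annotation, at 48.6% and 29.0%.

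Slc25a22, the glutamate carrier, had the most divided isoforms of the 14. Its leading chain, with 10 exons, was a combination of annotated junctions that no single annotated transcript holds, with 17 of 35 reads in replicate 1 (48.6%, 31.4 to 66.0) and 9 of 31 in replicate 2 (29.0%, 14.2 to 48.0). The 35 and 31 are 32 and 25 complete spliced reads plus 3 and 6 reads of the single-exon transcript Slc25a22-221. It shared 8 of its 9 introns with the 10-exon transcript Slc25a22-201. In place of that transcript's first intron it held the first intron of Slc25a22-209, at chr7:141434330-141435287. It held all 7 introns of Slc25a22-209 and, beyond them, introns on the 3′ side that this shorter transcript lacks. The coding start of Slc25a22-201 and Slc25a22-209 lies at base 141434175, downstream of the exchanged first exon, so both first exons are noncoding in these transcripts.

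Sorted by first exon, 21 of 32 spliced complete reads (65.6%) in replicate 1 and 13 of 25 (52.0%) in replicate 2 began with the first exon of Slc25a22-209. The distal first exon of Slc25a22-201 had 5 reads (15.6%) and 3 reads (12.0%). First exons were sorted by the splice site that ends them. An unannotated site at chr7:141434409 had 3 reads (9.38%) and 6 reads (24.0%), and another at chr7:141434429 had 2 reads (6.25%) and 1 read (4.00%). The site at chr7:141434409 lies inside the annotated first exon of Slc25a22-208 (chr7:141434156-141434423). Of the chains, Slc25a22-201 itself had 3 and 2 reads. A chain of 10 exons with an unannotated splice site had 3 and 5 reads (8.57% and 16.1%), another such chain had 2 and 1 (5.71% and 3.23%), and a 9-exon chain with an unannotated junction of annotated sites had 3 and 3 (8.57% and 9.68%). The single-exon transcript made 8.57% and 19.4%. These counts are small, and the intervals of the leading chain in the libraries overlap.

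Alternative first exons also set the isoform of Slc25a25. Of its annotated first exons, 3 had 2 or more complete reads over both libraries, each with a coding start of its own, so they give the protein different N-termini. The first exon of Slc25a25-203, ending at chr2:32423794, began 117 of 123 spliced complete reads in replicate 1 (95.1%) and 31 of 34 in replicate 2 (91.2%). The first exon shared by Slc25a25-201 and Slc25a25-205 began 3 reads and 1 read, and that of Slc25a25-202 and Slc25a25-204 began 1 and 1. The lower level of Slc25a25 in replicate 2 was thus a lower level of the form that begins with this exon, whose leading chain Slc25a25-203 had 112 reads in replicate 1 and 29 in replicate 2. Slc25a44 divided its few complete reads over 3 annotated splice sites that end overlapping first exons, unlike the separate first exons of Slc25a25. The first exons lie at chr3:88424728-88425139 (Slc25a44-201), chr3:88424846-88425108 (Slc25a44-203) and chr3:88424774-88425112 (Slc25a44-204). Only that of Slc25a44-201 holds the coding start of its transcript. The site of Slc25a44-201 was used by 12 of 20 and 10 of 13 reads, that of Slc25a44-203 by 4 and 2, and that of Slc25a44-204 by 4 and 1.

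Most spliced reads of Slc25a23 belonged to a form without the last exon of its longest transcript. Its 10-exon transcript Slc25a23-201 splices exon 9 to exon 10, while the annotated short transcript Slc25a23-206 reads on through the end of exon 9 (base 57047186 on chr17, minus strand) and stops. Both are shown from the last 30 bases of exon 9, in lower case. Capitals mark the 68 coding bases that follow in the short form, ending with its stop codon, and the first 30 bases of exon 10 in the long form (mm10, GENCODE M21 transcripts, chr17:57047118-57047215 for the short form, chr17:57047186-57047215 joined to chr17:57045634-57045663 for the long form).
Slc25a23 short form: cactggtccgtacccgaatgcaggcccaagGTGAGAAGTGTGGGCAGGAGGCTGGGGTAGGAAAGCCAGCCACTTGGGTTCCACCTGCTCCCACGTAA
Slc25a23 long form: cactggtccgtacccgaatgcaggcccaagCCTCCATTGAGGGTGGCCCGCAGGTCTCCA
Replicate 1 had 18 spliced reads and replicate 2 had 21. Of these, 15 and 18 held the intron before exon 9 and lacked the intron from exon 9 to exon 10. The intron to exon 10 was held by 0 and 1. Other splices out of exon 9 were not sorted. Of the 15 and 18, 13 and 16 reads were 1 chain of 9 exons. It shares all 8 of its introns with Slc25a23-201 and all 3 introns of Slc25a23-206, whose 5′ end lies further downstream. Where single reads end was not analysed here. The model of that chain ends at base 57047051 in both libraries, which is the annotated end of Slc25a23-206. The deposited models class it as incomplete (ISM), so these reads are not among the complete reads above. A further 2 of the 20 reads of the gene in replicate 1 and 11 of the 32 in replicate 2 were single-exon and hold no intron by which to sort them. Of the 11, 5 were in a model at chr17:57043711-57043807, inside exon 10 of the long form. Reads with the intron before exon 9 and without the next one made 15 of all 20 reads and 18 of all 32.

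Slc25a3 used exon A in nearly all of its reads. Among reads with exactly 1 of these exons, 710 held exon A and 20 exon B in replicate 1, and 1274 held exon A and 30 exon B in replicate 2. The share of exon A was 97.3% (95.8 to 98.3) in replicate 1 and 97.7% (96.7 to 98.4) in replicate 2, a mean of 97.5% ± 0.310 (SD, n = 2). No difference between the libraries was detected in this share (p = 0.553, Fisher's exact test, two-sided). Reads with both exons numbered 1 in each library, and spliced reads that crossed the position with neither numbered 0 and 1. The exons are thus exclusive in all but 2 of the reads with either. A further 21 and 39 spliced reads did not reach the position, and 13 and 75 reads were single-exon.

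**Figure D5:**
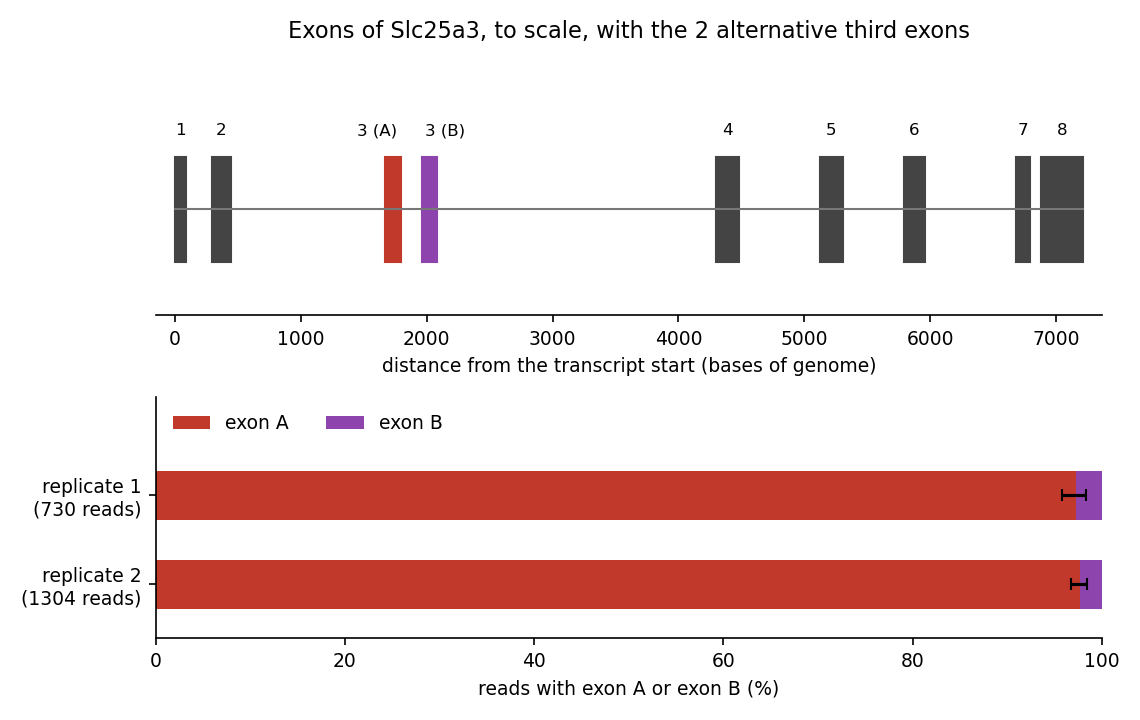
Top: exons of Slc25a3 by distance in bases from the start of Slc25a3-206, to scale, with the alternating exons A (red) and B (purple). Bottom: share of reads with exon A or exon B among reads with 1 of them, in each library, with the 95% exact binomial interval of exon A; exon A holds 97.3% of 730 reads and 97.7% of 1304 reads.

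As background, exon A is the form known from heart and skeletal muscle, and exon B that of most other tissues. The leading chain of the gene was the 8-exon transcript Slc25a3-206, which holds exon A, with 643 of 697 complete reads in replicate 1 (92.3%) and 1131 of 1229 in replicate 2 (92.0%). The first exon of Slc25a3-206 began 97.0% and 96.4% of its complete reads.

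Proteins of the carrier fold that go by other symbols were also present. The annotation held 5 of the 8 listed, of which Mtch1, an outer membrane protein, had 203 reads (190 CPM) in replicate 1 and 248 reads (159 CPM) in replicate 2. Mtch2, an outer membrane protein insertase, had 144 and 275 reads and was higher in replicate 2 (log2 ratio 0.39, adjusted p = 0.0353, Fisher's exact test). The muscle uncoupling protein Ucp3 had 143 reads (134 CPM) and 51 reads (32.7 CPM) and was lower (log2 ratio -2.02, adjusted p = 7.20e-19, Fisher's exact test). Ucp2 had 9 and 6 reads and the brown fat protein Ucp1 had none. A further list of 21 mitochondrial genes held inner membrane transporters together with enzymes and regulators. Of the 21, 16 were tested. In replicate 2, 3 were higher (Mpc1, Mpc2 and Smdt1), 4 were lower (Ckmt2, Crat, Cpt1b and Letm1) and 9 did not pass. Beside these, 11.1% of all genes were higher and 14.9% lower. Mpc1 and Mpc2, the subunits of the mitochondrial pyruvate carrier, had 239 and 253 reads in replicate 1 and 616 each in replicate 2.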

How the data were processed

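The authors deposited, for each library, raw counts of long reads per transcript model, whole numbers with no normalization, with TALON model classes, per the file headers. The notes deposited with them name mm10 and GENCODE M21. Which aligner, platform and read filters served was not given in the sources used here. The labels give both animals the same donor record. The p-values of Fisher's test cover only counting error in these 2 libraries, with no estimate of the spread between animals.

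Counts were summed per gene, leaving out ERCC spike-ins, and given as CPM of all mouse reads. Log2 ratios added 0.5 reads to each count. Chains were matched between libraries by chromosome, strand and introns. Intervals are exact (Clopper-Pearson, 95%) and cover counting error only. edgeR 4.0.16 and DESeq2 1.42.0 (R 4.3.3) gave alternatives. Other steps used Python 3.11.15, scipy 1.17.1, statsmodels 0.14.6 and Biopython 1.88 (exon alignment: match 2, mismatch -1, gap open -5, gap extension -1). Genes opposite a neighbour, such as Slc25a11 with Rnf167 and Slc25a25 with Naif1, rest on the authors' strand assignment.

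The members, the role groups, the marker lists and the other lists were chosen with earlier results of these data known. Values were printed for the 20 carriers with the highest mean CPM and for each carrier past the test. The values of 1 of the 20 are not reported here, though counts and sums over carriers include it. Chains were named at 5% or more of a gene with 20 or more complete reads in each library. Slc25a23, Slc25a44, their forms and the paralogue sequences were singled out after their values were seen. No sequence of the proteins was used here.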

Additional observations from a re-analysis of the deposited data

How the results depend on the processing

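The share of Slc25a4 in the carrier reads, averaged over the libraries, stayed between 81.9 and 84.0% on complete reads, on Known transcripts and per length. Leaving out a replicate returns the value of the other library (80.3 and 85.8% for Slc25a4), so it adds no check. The share of exon A in Slc25a3 stayed between 97.3 and 97.7%. No carrier passed the test of the leading chain under any alternative tried (6, 17 and 8 carriers tested). Few genes passed it at all: 0.696% of all genes with Known transcripts only. With a minimum of 10 complete reads in each library 0.513% passed, and with a minimum of 50, 1.51%. The number of carriers higher in replicate 2, which was 4, was 2 with complete chains, with Known transcripts, with single-exon models left out and with complete chains over all mouse reads, and 0 with edgeR's exact test. The number lower, which was 3, was 5 with a minimum of 30 reads, with Known transcripts and with complete chains over all mouse reads. It was 4 with complete chains and with single-exon models left out. It was 2 with TMM sizes, with DESeq2 sizes and with the length trend removed, and 1 with edgeR. With the length trend removed 3 carriers were higher. The last 2 settings on reads counted (single-exon models left out, complete chains over all mouse reads) were chosen after seeing the data. Over all genes the shares higher and lower were 11.6% and 15.0% with complete chains and 8.69% and 21.9% with Known transcripts. They were 10.3% and 16.3% without single-exon models and 7.56% and 5.56% with the length trend removed. With TMM sizes they were 14.3% and 9.48%, and with DESeq2 sizes 14.3% and 9.60%. A minimum of 30 reads gave 17.1% and 22%. The added lower calls were Slc25a15 and Slc25a29. Log2 ratios reversed for Slc25a5 (-0.19 with complete chains, -0.44 with Known transcripts, -0.25 without single-exon models, -0.34 with complete chains over all mouse reads) and, in the same order, for Slc25a44 (-0.99, -1.27, -1.12 and -1.14). For these genes the settings leave out the single-exon reads by construction. Slc25a12 reversed to 0.25 with the length trend removed; the cause was not tested. TMM and DESeq2 sizes each moved the median ratio of all genes up by 0.18, the length correction by 0.18 and Known transcripts by -0.20. The median share of the leading chain over 14 carriers was 94.5%, 100% with Known transcripts alone and 89.5% with incomplete spliced reads included, and 94.2 to 94.8% when a replicate was left out. No paired analysis was possible because both libraries belong to 1 group. With no minimum of reads, 41 carriers were tested, and 4 were higher and 3 lower, beside 5.67% and 7.44% of all genes.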
